A study of Bos taurus with 6 samples.

Results

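Bone morphogenetic protein (BMP) signalling genes that endothelial cells are known to use were followed through 6 RNA libraries of cow endometrium, the lining of the uterus. They were chosen by symbol and make up 10 of the 34733 named genes in the files: the receptors ACVRL1, ENG and BMPR2, the ligands BMP4 and BMP6, the target genes ID1, ID2 and ID3, and the inhibitory SMAD genes SMAD6 and SMAD7. The study digested the endometrium of luteal phase Bos taurus uteri, stripped of luminal epithelium, with collagenase and sorted the stromal preparation by its content of a Hoechst DNA dye. Side population (SP) cells export the dye and main population (MP) cells keep it, and there were 3 libraries of each. Neither group was labelled with a treatment, genotype or age, the uteri came from slaughterhouses with their cycle stage judged from the ovaries, and dead cells alone were gated out, with no antibody named. The labels do not tie a replicate to an animal. A p-value therefore sets a difference against the spread of these 6 libraries, which may be technical.

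BMP ligands bind a complex of type I and type II receptors on the cell surface, which phosphorylates SMAD1, SMAD5 and SMAD9. These join SMAD4 and enter the nucleus, where ID1, ID2, ID3, SMAD6 and SMAD7 are well known targets. ID proteins bind E proteins and keep them from DNA, while SMAD6 and SMAD7 act back on the receptors as inhibitors. In blood vessels ACVRL1 (the type I receptor ALK1), with its co-receptor endoglin (ENG) and the type II receptor BMPR2, is a main BMP receptor, and loss of these genes causes human vascular disease.

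The unit throughout is FPKM, which scales fragments to the length of the transcript and the size of the library. A gene was tested with limma on log2(FPKM + 1) when 3 or more libraries reached 1 FPKM, which 12127 genes did, and a fold change is SP minus MP on that scale, where low genes change less than in FPKM. A gene "rose" or "fell" in SP when its p, adjusted by Benjamini-Hochberg over the 12127 genes, was under 0.05. By that rule 39.2% of the tested genes differed, 20.5% higher and 18.7% lower in SP, and the SP and MP values did not overlap for 54.8% of genes, 28.3% higher and 26.5% lower. With FPKM rescaled to equal sums, 68.0% of the calls were higher in SP, against 52.3% as deposited, and the median fold change of all tested genes moved from 0.01 to 0.19. Read against these shares, 6 of the 10 genes rose in SP (ACVRL1, ENG, BMP6, ID2, SMAD6 and SMAD7), none fell, and 4 did not pass. The number that rose was 3 without MP replicate 2, and 4 without SP replicate 1, without MP replicate 1 or with no filter on low values. It was 0 with replicate 1, or with replicate 2, left out of both populations. The 3 SP values lay above the 3 MP values in 7 of the 10, the called genes and BMPR2. All 10 passed the filter on low values, and none was under 1 FPKM throughout a population. Their median fold change was 1.51.

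The populations also differed in cell markers, which bears on every value here, since in bulk libraries fewer cells of a type and less RNA per cell cannot be told apart. Of 19 endothelial markers 18 rose and CLDN5 did not pass, with a median of 2.29. Their summed level was 2112 to 3255 FPKM in SP and 226 to 1302 FPKM in MP, highest among the MP libraries in replicate 3, and none was at 0. EMCN (endomucin), the most abundant in the mean of the 6 libraries, was at 382 to 637 FPKM in SP and 44.5 to 194 FPKM in MP. Of 15 fibroblast markers 13 fell, 3 of them (DPT, HAND2 and LOXL1) in a direction fixed by the filter (summed level 311 to 503 FPKM in SP and 3073 to 11972 FPKM in MP, none at 0). Of 11 tested pericyte and smooth muscle markers 7 fell, with sums of 342 to 544 FPKM in SP and 1201 to 1993 FPKM in MP, none at 0. None of the 10 epithelial markers passed, with sums of 194 to 1825 FPKM in SP and 1019.7 to 4701 FPKM in MP, highest in replicate 2 of each population, and none was at 0. Leukocyte markers fell in 9 of 12 tested, 6 of them in a direction fixed by the filter. The 14 listed summed to 129.8 to 173 FPKM in SP and 340 to 651 FPKM in MP, with CD2, CD3D and MS4A1 at 0 in some libraries. Most of the SP sums came from the 3 tested markers that did not pass. These were CD14 (86.9 to 105 FPKM in SP), CD68 (15.7 to 34.3 FPKM) and KIT (13.5 to 32.3 FPKM). The median of the 14 was 0.148 to 0.25 FPKM in SP and 7.58 to 14.5 FPKM in MP. Of the 6 lymphatic endothelial markers 2 were tested and neither passed, with sums of 8 to 84.1 FPKM in SP and 14.4 to 26.9 FPKM in MP. CCL21 was at 0 in 2 SP libraries, and PROX1, which defines lymphatic endothelium, was under 1 FPKM in all 6 libraries. The word micro stands in the headers of the 3 MP libraries and of no SP library, and the labels do not explain it. The depth of the libraries, read from the ratio of low values and relative to SP replicate 1, ranged up to 1.83 in SP and from 1.99 to 3.18 in MP.

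**Figure D1:**
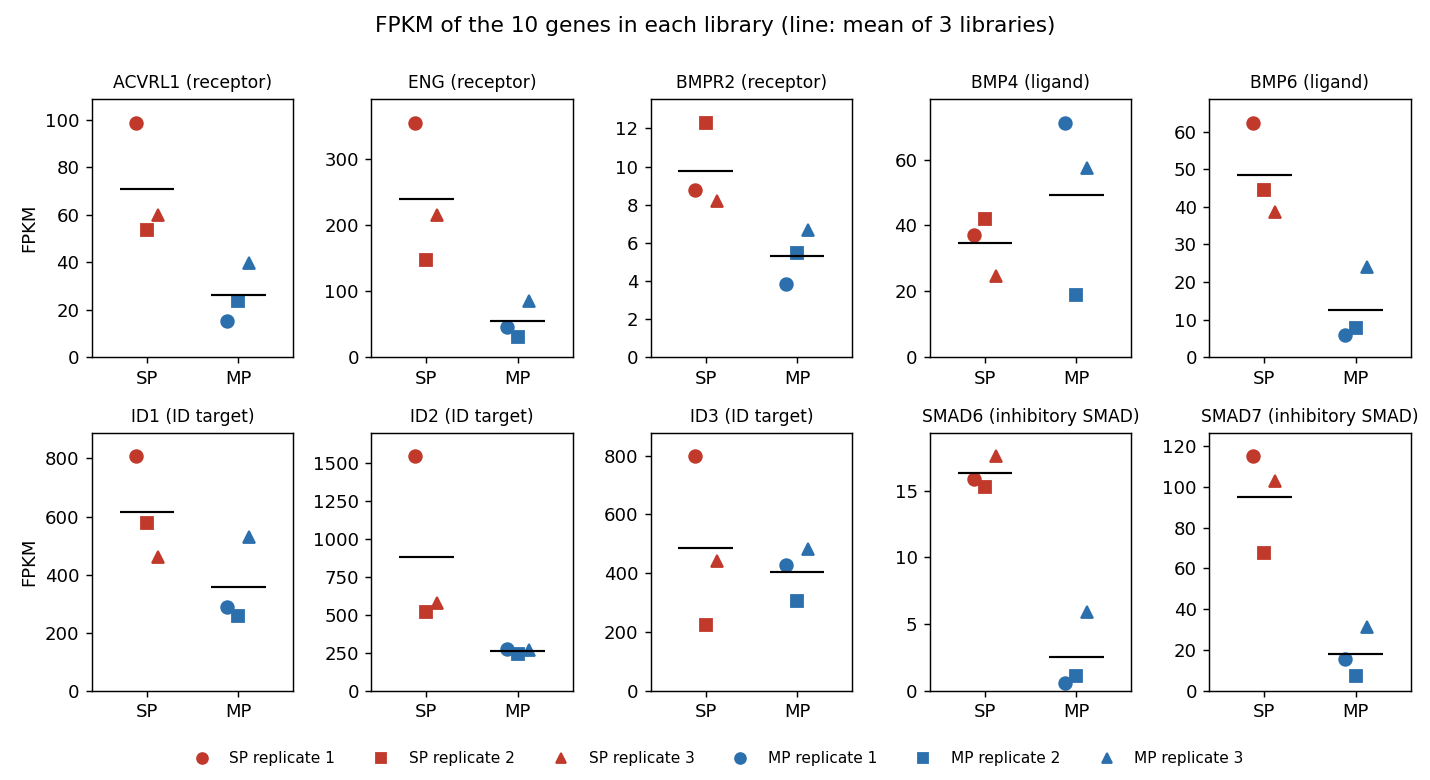
FPKM (vertical axes, from 0, a scale for each gene) of the 10 genes in the 3 SP libraries (red) and the 3 MP libraries (blue), with the symbol showing the replicate number and the mean as a line. The populations stand apart for ACVRL1, ENG, BMPR2, BMP6, ID2, SMAD6 and SMAD7 and overlap for BMP4, ID1 and ID3.

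Of the 3 receptors ENG and ACVRL1 rose in SP, while BMPR2 was higher in SP without passing the test. ENG (chromosome 11, 98497640 to 98529460, build ARS-UCD1.2) stood at 355, 147 and 216 FPKM in the SP libraries, in the order of replicates 1 to 3 used throughout, and at 45.9, 31.3 and 85.4 FPKM in MP. Every SP library lay above every MP library, with SP replicate 1 highest. The SP mean of 239 ± 106 FPKM compared with 54.2 ± 28.0 FPKM for MP (SD, n = 3 each). ENG rose by 2.15 ± 0.44 (log2, SE; limma adjusted p = 0.00946).

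ACVRL1 (chromosome 5, 27943335 to 27957082) was at 98.8, 53.5 and 60.1 FPKM in SP and at 15.3, 23.5 and 39.8 FPKM in MP. The groups did not overlap, and MP replicate 3 came nearest to SP. ACVRL1 rose by 1.45 ± 0.39 (SE; limma adjusted p = 0.0227), 2.70 times higher in the mean. This call was lost without SP replicate 1 (limma adjusted p = 0.0753), MP replicate 1 (0.0653) or MP replicate 2 (0.0669), and with no filter on low values (0.0519).

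BMPR2 (chromosome 2, 90864689 to 91017391), the type II receptor, was the scarcest of the receptors, at 8.75, 12.3 and 8.21 FPKM in SP and 3.86, 5.49 and 6.65 FPKM in MP. Its values did not overlap, but the fold change of 0.77 (95% interval 0.14 to 1.40) did not pass (limma adjusted p = 0.0549). It passed with FPKM rescaled to equal sums (fold change 0.99, limma adjusted p = 0.0255) and without MP replicate 3 (0.92, limma adjusted p = 0.0407). ENG exceeded ACVRL1 in every library, by a ratio of 2.75 to 3.60 in SP and 1.33 to 3.00 in MP.

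The ligands parted from each other. BMP6 (chromosome 23, 47476520 to 47662629), a ligand that endothelial cells make, was at 62.4, 44.4 and 38.6 FPKM in SP and at 5.92, 7.78 and 24.1 FPKM in MP. All SP values exceeded the MP values, and again MP replicate 3 was nearest. BMP6 rose by 2.07 ± 0.48 (SE; limma adjusted p = 0.0138), from a mean of 12.6 ± 10.0 FPKM to 48.5 ± 12.4 FPKM (SD, n = 3 each). Without SP replicate 1 or MP replicate 2 it missed the threshold narrowly (limma adjusted p = 0.0503 and 0.0501). The files list BMP6 and TXNDC5, a protein disulfide isomerase, at one and the same locus, so reads of the pair may not be told apart. TXNDC5 was at 22.7 to 33.5 FPKM in SP and 34.7 to 73.1 FPKM in MP, ordered opposite to BMP6.

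BMP4 (chromosome 10, 66518533 to 66532572), a ligand also made by stromal cells, was at 37.2, 42.1 and 24.6 FPKM in SP and at 71.2, 19 and 57.3 FPKM in MP. The groups overlapped fully, as MP replicate 2 was the lowest library and MP replicates 1 and 3 the highest. The fold change of −0.33 (95% interval −1.45 to 0.78) did not pass (limma adjusted p = 0.602), so neither a fall by 1.45 nor a rise by 0.78 lies outside the interval. Its sign turned without MP replicate 1 (0.03).

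FPKM is per length, so the make-up of the ligands can be read within a library, free of the scaling between libraries. The listed BMP4 locus spans 14040 bp, 1.98 times the gene in the RefSeq table of assembly ARS-UCD2.0, and the transcript length used for BMP4 is not known, which limits the comparison of its level with that of BMP6. BMP6 took 62.0%, 50.8% and 59.2% of the summed FPKM of BMP2, BMP4, BMP6 and BMP7 in SP and 6.45%, 26.3% and 27.4% in MP. BMP4 took 37.0% to 48.2% in SP and 64.3% to 77.5% in MP. By these values the leading ligand of this group was BMP6 in each SP library and BMP4 in each MP library. The shares of neither ligand overlapped between the populations. The locus that BMP6 shares with TXNDC5 also limits the reading of its share, and the part of TXNDC5 reads was not tested.

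The inhibitory SMADs had the largest fold changes of the 10 genes. Their 95% intervals (SMAD6 1.42 to 3.78, SMAD7 1.42 to 3.6) overlapped those of ENG (1.13 to 3.17) and BMP6 (0.97 to 3.18). The fold change of SMAD6, which was low in MP, was 3.27 with a pseudocount of 0.1. SMAD6 (chromosome 10, 13544183 to 13622063), which acts mainly on BMP receptors, was at 15.9, 15.3 and 17.6 FPKM in SP and at 0.566, 1.12 and 5.90 FPKM in MP. SP libraries were close to each other, while the MP libraries spread 10.4-fold, with replicate 3 highest. SMAD6 rose by 2.60 ± 0.51 (SE; limma adjusted p = 0.0082), 6.43 times higher in the mean.

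SMAD7 (chromosome 24, 48598698 to 48627436), which inhibits both BMP and TGF-beta receptors, was at 115, 67.7 and 103 FPKM in SP and at 15.6, 7.43 and 31.0 FPKM in MP. Again no MP library reached an SP library. SMAD7 rose by 2.51 ± 0.47 (SE; limma adjusted p = 0.00718), from a mean of 18.0 ± 12.0 FPKM to 95.1 ± 24.4 FPKM (SD, n = 3 each). SMAD7 exceeded SMAD6 in all 6 libraries, by a ratio of 4.41 to 7.24 in SP and 5.26 to 27.5 in MP. The calls of ENG, SMAD6 and SMAD7 held without any one library.

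The ID genes were the most abundant of the set and did not move as a group. ID2 (chromosome 11, 88604757 to 88630354) was at 1548, 520 and 579.6 FPKM in SP and at 272, 244 and 268 FPKM in MP. The MP libraries were nearly level, and SP replicate 1 was far above the other SP libraries. ID2 rose by 1.57 ± 0.41 (SE; limma adjusted p = 0.0212). Without SP replicate 1 the fold change was 1.07 (limma adjusted p = 0.0264), and the call was lost without MP replicate 1 (0.0569), without MP replicate 2 (0.0671) and with no filter on low values (0.0531).

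ID1 (chromosome 13, 61180673 to 61181832) was at 808, 577 and 459.9 FPKM in SP and at 288, 258 and 529 FPKM in MP. MP replicate 3 lay above SP replicate 3, so the groups overlapped. The fold change of 0.81 (95% interval 0.01 to 1.61) did not pass (limma adjusted p = 0.095). It passed without MP replicate 3 (1.13, limma adjusted p = 0.0287), with FPKM rescaled to equal sums (1.04, limma adjusted p = 0.0177) and when rescaled without mitochondrially encoded and ribosomal protein genes (0.87, limma adjusted p = 0.0456).

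ID3 (chromosome 2, 129240050 to 129301563) was at 798, 223 and 439.6 FPKM in SP and at 426, 304 and 483 FPKM in MP. SP held both the highest and the lowest of the 6 libraries, and the fold change was 0.11 (95% interval −0.94 to 1.15; limma adjusted p = 0.862). Its sign turned without SP replicate 1 (−0.34) or MP replicate 2 (−0.09).

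The ratio of ID2 to ID3, measured within each library, did separate the populations, at 1.94, 2.33 and 1.32 in SP and at 0.638, 0.803 and 0.554 in MP. ID2 made up 39.0% to 49.1% of the summed FPKM of the 4 ID genes in SP and 20.8% to 29.7% in MP. ID3 made up 16.8% to 29.6% in SP and 37.0% to 42.7% in MP. The share of ID1 overlapped, at 25.6% to 43.5% and 28.9% to 41.0%. ID4 was minor, at most 1.88%. The listed loci of ID2 and ID3 span 25598 and 61514 bp, 11.11 and 11.06 times the gene lengths in the RefSeq table of assembly ARS-UCD2.0. The transcript lengths used for ID2 and ID3 are not known, which limits the comparison of their levels with each other. An uncharacterised gene, LOC101905845, overlaps the listed ID2 locus at 0.774 to 7.91 FPKM.

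The transcript lengths behind FPKM are not known, which limits a ranking of different genes, among them BMP4, ID2 and ID3 with their wide listed loci. Ranked by mean FPKM, the order in SP was ID2, ID1, ID3, ENG, SMAD7, ACVRL1, BMP6, BMP4, SMAD6 and BMPR2. Neighbours in this order overlapped in range except at 3 steps, between ENG and SMAD7, between BMP4 and SMAD6 and between SMAD6 and BMPR2. In MP the order was ID3, ID1, ID2, ENG, BMP4, ACVRL1, SMAD7, BMP6, BMPR2 and SMAD6, and only the step from ID2 (lowest 244 FPKM) to ENG (highest 85.4 FPKM) had no overlap. SMAD6, last in MP, was also the most even gene in SP, with a coefficient of variation of 7.24%, against 116% in MP. ID2 was the reverse, at 65.4% in SP and 5.68% in MP.

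**Figure D2:**
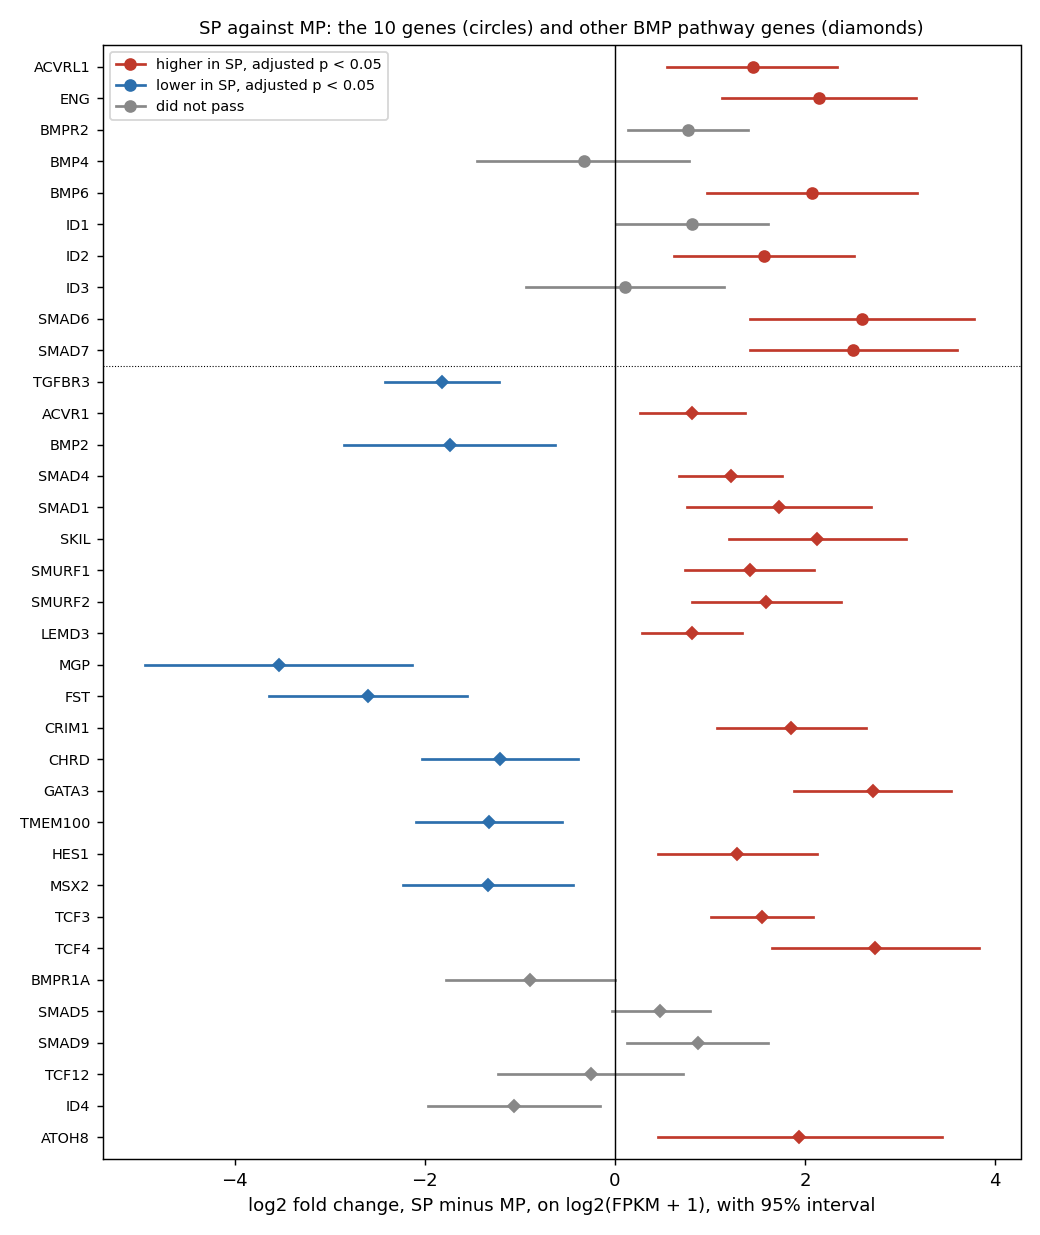
Log2 fold change (SP minus MP on log2(FPKM + 1), horizontal axis) with its 95% interval for the 10 genes (circles, above the dotted line) and other named genes of the pathway (diamonds), coloured by the limma call. Among the 10 genes SMAD6 (2.60) and SMAD7 (2.51) lie farthest right, BMP4 (−0.33) is the only one left of 0, and MGP (−3.54) lies farthest left of all genes shown.

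Each gene was also set against the endothelial markers of its own library. This shifts every fold change by the same amount and leaves the gaps between genes as they were, so a gene with a fold change near 0 is low on this scale by construction, and what it adds is the spread over libraries. The reference was the median log2(FPKM + 1) of the 19 markers, which contain none of the 10 genes and were 2.29 higher in SP. On this scale the groups of ENG (difference −0.14), BMP6 (−0.22), SMAD7 (0.22) and SMAD6 (0.31) overlapped (exact permutation p from 0.3 to 1.0). The difference of ENG turned to 0.47 and that of BMP6 to 0.08 without MP replicate 1, and that of SMAD7 to −0.16 without MP replicate 2 and −0.07 without MP replicate 3. Some of these overlaps depended on a setting or a library. The groups of SMAD6 stood apart with a pseudocount of 0.1 (0.91) and those of SMAD7 without MP replicate 1 (0.89), each with an exact permutation p of 0.1. Against PECAM1, CDH5, TIE1 and ERG alone ACVRL1 (−1.12), BMPR2 (−1.80) and BMP6 (−0.49) were lower in every SP library (exact permutation p = 0.1 each). Without MP replicate 3 the same was true of ACVRL1 (−1.27), BMPR2 (−2.14) and ID2 (−1.47) against the 19 markers (exact permutation p = 0.1 each). With all libraries ACVRL1 was nearly level in SP (−0.61, −0.61 and −0.62) and at 0.92, 0.39 and −0.62 in MP, so MP replicate 3 matched SP. ID3, BMP4 and ID1 were lower in every SP library than in any MP library.

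The relative level of ID3 was 2.39, 1.43 and 2.23 in SP and 5.63, 4.02 and 2.95 in MP, a difference of −2.18. That of BMP4 differed by −2.62 and that of ID1 by −1.48. Each of these 3 had an exact two-sided permutation p of 0.1, the smallest that 3 against 3 libraries allow, and 0.333 after adjustment over the 10 genes. BMPR2 (−1.52, exact permutation p = 0.2) and ID2 (−0.72, exact permutation p = 0.6) overlapped. MP replicate 1, the library with the lowest endothelial reference (3.11, against 4.23 and 5.97 in MP replicates 2 and 3), was the highest MP library for each of the 10 genes. A low reference raises every gene of its library on this scale, so this is not particular to the 3 non-overlapping genes.

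**Figure D3:**
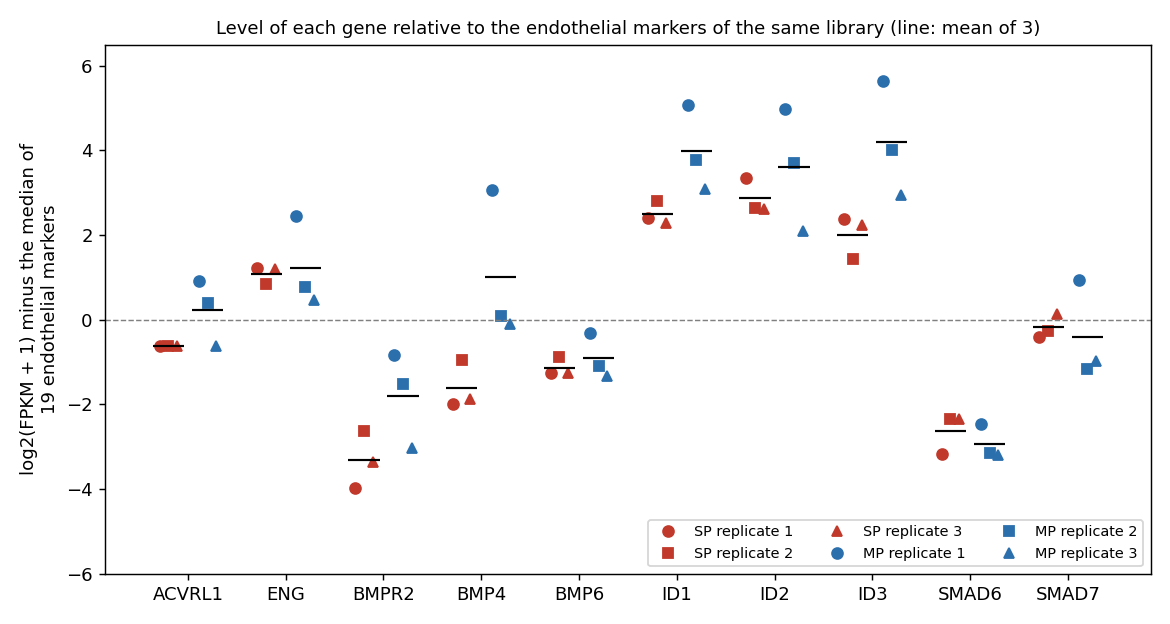
Level of each of the 10 genes minus the median of 19 endothelial markers in the same library (log2(FPKM + 1) units, vertical axis), for SP (red) and MP (blue), with the symbol showing the replicate number and the mean as a line. SP libraries lie below all MP libraries for BMP4, ID1 and ID3 and overlap them for the others.

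The other pathway genes give the setting of these values. Of 70 listed genes in 7 lists, 68 had a row, 8 were listed at 0 in all 6 libraries, 15 more stayed below the filter and 45 were tested. Of these 15 rose, 7 fell and 23 did not pass, with a median fold change of 0.48, beside 20.5% higher and 18.7% lower among all tested genes. The number that rose was 8 without SP replicate 1, 9 without MP replicate 1 and 8 without MP replicate 2, and the number that fell was 3, 3 and 5 in the same fits and 4 without SP replicate 2. GDF2 (BMP9) and BMP10, which reach ACVRL1 through the blood from liver and heart, are among the genes listed at 0.

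Of 6 tested other receptors and co-receptors, 1 rose, 1 fell and 4 did not pass. Among all tested genes 20.5% rose and 18.7% fell. ACVR1, the type I receptor ALK2, rose by 0.81 ± 0.24 (SE; limma adjusted p = 0.0316), from 15.5 to 28.2 FPKM in the mean. Its call was lost in 4 of the 6 fits that left out a library, namely SP replicates 1 and 2 and MP replicates 2 and 3 (adjusted p by limma from 0.064 to 0.105). TGFBR3 (betaglycan), a co-receptor of the same family as endoglin, was at 25.3, 16.3 and 16.4 FPKM in SP and at 84.2, 65.7 and 60.6 FPKM in MP. It fell by 1.82 (SE 0.26; limma adjusted p = 0.00337). The ratio of ENG to TGFBR3 was 14.0, 9.01 and 13.1 in SP and 0.545, 0.477 and 1.41 in MP. Thus endoglin made up 90.0% to 93.4% of the summed level of these 2 co-receptors in SP and 32.3% to 58.5% in MP.

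Among type I receptors the share of ACVRL1 was 77.5%, 59.9% and 70.9% in SP and 40.7%, 55.3% and 71.8% in MP, so it overlapped between the populations. BMPR1A (ALK3), a type I receptor found in many cell types, was at 0.433, 1.5 and 1.45 FPKM in SP and 3.67, 4.33 and 1.24 FPKM in MP. Its share was 0.339% to 1.71% in SP and 2.24% to 10.2% in MP, with MP replicate 3 lowest in MP. The fold change of BMPR1A, −0.89, did not pass (limma adjusted p = 0.0998).

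**Figure D4:**
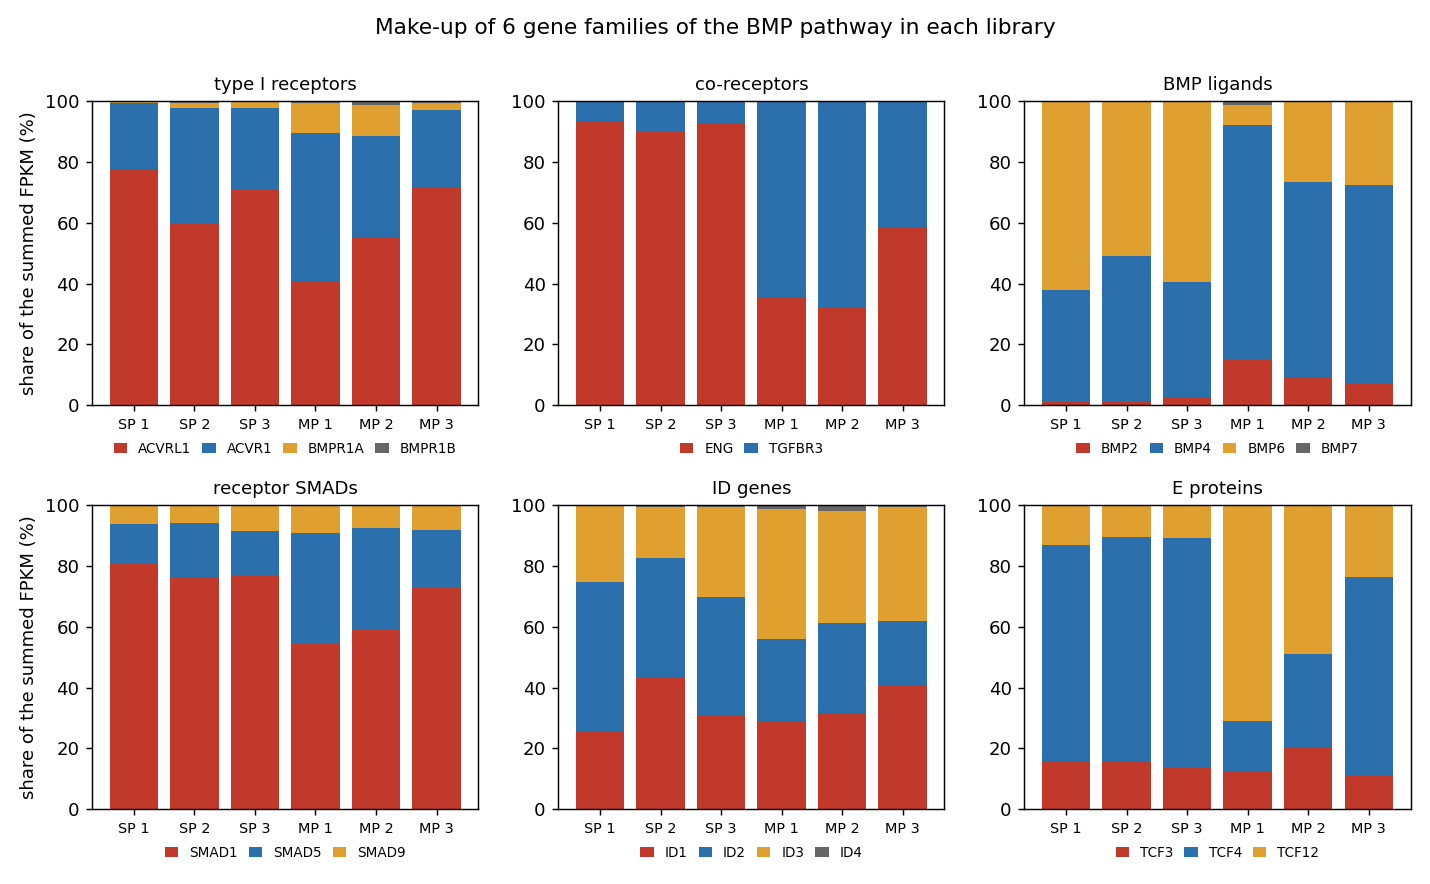
Share of the summed FPKM (vertical axis, 0 to 100%) that each gene takes of its family, for 6 families, in the 3 SP and 3 MP libraries. ENG leads the co-receptors at 90.0% or more in SP, BMP6 leads the ligands in SP and BMP4 in MP, and MP 3 lies nearest to SP among type I receptors, receptor SMADs and E proteins.

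One further ligand was tested. BMP2, which endometrial stroma is known to make, was at 1.01, 0.83 and 1.87 FPKM in SP and at 13.6, 2.67 and 6.33 FPKM in MP, and fell by 1.74 (SE 0.48; limma adjusted p = 0.025). MP replicate 1 was highest, and no SP library reached an MP library. The call was lost without the filter on low values (limma adjusted p = 0.0674) and without SP replicate 1 (0.0742), SP replicate 2 (0.0731) or MP replicate 1 (0.0528). The other 12 listed ligands were listed at 0 or stayed below the filter.

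Of the 4 SMADs that carry the signal, 2 rose, beside 20.5% of all tested genes. SMAD4, the common partner, was at 63.0, 74.5 and 49.9 FPKM in SP and 24.0, 24.6 and 29.6 FPKM in MP, a rise of 1.22 ± 0.24 (SE; limma adjusted p = 0.00784). SMAD1 was at 55.8, 42.6 and 53.1 FPKM in SP and 9.77, 9.91 and 30 FPKM in MP, a rise of 1.73 ± 0.42 (SE; limma adjusted p = 0.0165) that was not called without SP replicate 1 (0.0546), MP replicate 1 (0.0547) or MP replicate 2 (0.0579). SMAD5 and SMAD9 had fold changes of 0.48 and 0.87 and did not pass (limma adjusted p = 0.119 and 0.0634). SMAD1 therefore took a larger share of the 3 receptor SMADs in SP, 76.1% to 80.6%, than in MP, 54.5% to 72.6%.

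Of 10 other inhibitors inside the cell 6 rose and none fell, beside 20.5% higher and 18.7% lower among all tested genes. SKIL, which encodes the SMAD corepressor SnoN, was at 24.9, 10.9 and 27.3 FPKM in SP and 3.29, 2.54 and 5.79 FPKM in MP, a rise of 2.13 ± 0.40 (SE; limma adjusted p = 0.00725). The ubiquitin ligases SMURF1 and SMURF2, which act with SMAD7 on receptors, rose by 1.42 and 1.59 (limma adjusted p = 0.00993 and 0.0108). LEMD3, a nuclear envelope protein that binds SMADs, rose by 0.81 (limma adjusted p = 0.0262). The LEMD3 call held without MP replicate 3 and was lost without any other library (limma adjusted p from 0.0501 to 0.087) and with no filter on low values (0.0519). In SKIL, SMURF1, SMURF2 and LEMD3 SP replicate 2 was the lowest SP library, as in 6 of the 10 members. In BAMBI and PPM1A, which also rose, SP replicate 3 was lowest.

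Of 9 tested antagonists outside the cell, 3 fell and 1 rose, beside 18.7% lower and 20.5% higher among all tested genes. MGP, matrix Gla protein, which binds BMPs, was at 153, 647 and 896 FPKM in SP and at 4998, 6625 and 4256 FPKM in MP and fell by 3.54 (SE 0.61; limma adjusted p = 0.00569). FST (follistatin) was at 1.6, 1.25 and 1.27 FPKM in SP and 25.7, 6.07 and 14.8 FPKM in MP and fell by 2.60 (SE 0.45; limma adjusted p = 0.00573). CHRD (chordin) was at most 0.844 FPKM in SP and 1.16 to 4.64 FPKM in MP, so the filter fixed its direction in advance. Its call (limma adjusted p = 0.0312) was lost with no filter on low values (0.0742), with quantile normalization (0.0593) and without any one SP library (0.0595 to 0.0884). CRIM1, a membrane protein that binds BMPs, went the other way, at 100.5, 103 and 78.9 FPKM in SP and 15.1, 27.4 and 37.9 FPKM in MP, a rise of 1.85 ± 0.34 (SE; limma adjusted p = 0.00672). The summed fibroblast markers, given above, were also lower in each SP library than in any MP library, and their part in these values was not tested.

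Of 12 target genes beyond the members, 3 rose, 2 fell and 7 did not pass, shares near the 20.5% and 18.7% of all tested genes. GATA3, a transcription factor, was at 17.9, 9.32 and 10.3 FPKM in SP and 0.824, 0.44 and 1.96 FPKM in MP, a rise of 2.72 ± 0.35 (SE; limma adjusted p = 0.00261). HES1, also a Notch target, rose by 1.29 (limma adjusted p = 0.027), a call lost with no filter on low values (0.0575) and without SP replicates 1 or 3 or MP replicates 1 or 2 (0.0571 to 0.0845). ATOH8, a helix-loop-helix factor downstream of ACVRL1 that was picked out after its values were seen, was at 16.1, 14.2 and 25.9 FPKM in SP and 1.82, 1.83 and 14.5 FPKM in MP. It passed (1.94, limma adjusted p = 0.046), although MP replicate 3 lay above SP replicate 2. The ATOH8 call was lost with a pseudocount of 0.1 (limma adjusted p = 0.0507), with no filter on low values (0.105) and without any one library other than MP replicate 3 (0.0779 to 0.135). TMEM100, an endothelial gene induced by ACVRL1 signalling, and MSX2 fell by 1.33 and 1.34 (limma adjusted p = 0.0181 and 0.0299). The TMEM100 call was lost with FPKM rescaled to equal sums (limma adjusted p = 0.0556) and without SP replicate 1 (0.0579) or MP replicate 1 (0.0555). The MSX2 call was lost without the filter on low values (limma adjusted p = 0.076) and without any one library other than MP replicate 3 (0.0541 to 0.0844). TMEM100 stood at 2.46, 4.06 and 6.01 FPKM in SP and at 15.8, 9.63 and 9.84 FPKM in MP, so all 3 SP values lay below the MP values.

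Of the 3 genes for E proteins, which ID proteins bind, 2 rose and 1 did not pass, beside 20.5% higher among all tested genes. TCF4 was at 82.9, 66.3 and 69.5 FPKM in SP and 6.27, 6.35 and 24.1 FPKM in MP, a rise of 2.74 ± 0.47 (SE; limma adjusted p = 0.0057). TCF3 rose by 1.55 ± 0.23 (SE; limma adjusted p = 0.00376), whereas TCF12 had a fold change of −0.25 (limma adjusted p = 0.651). TCF4 made up 71.1% to 75.6% of the summed FPKM of the 3 genes in SP and 16.5%, 30.7% and 65.0% in MP. MP replicate 3 again stood nearest to SP.

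Within the populations the 10 genes shared their highest and lowest libraries in part. SP replicate 1 was the highest SP library for 7 of them, and MP replicate 3 the highest MP library for 8. These libraries also had the largest summed FPKM of their populations. The sums were 870311, 747321 and 647501 FPKM in SP and 805915, 863631 and 963629 FPKM in MP. Replicate 2 was the lowest library of both populations for ENG, ID2, ID3 and SMAD7. Such counts were not made over all tested genes, so it is not known whether they are particular to the 10. EPCAM, an epithelial marker, was at 30.3, 432 and 134 FPKM in SP and at 76.9, 609 and 56.6 FPKM in MP, highest in replicate 2 of each. The part of epithelial RNA in these values was not tested. With replicate 2 left out of both populations, an alternative chosen after seeing the data, the fold changes were 2.13 for ENG, 1.81 for ID2, 0.38 for ID3 and 2.25 for SMAD7. None of these 4 then passed with 2 libraries a group (limma adjusted p = 0.0565, 0.0846, 0.533 and 0.0503).

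As a description, 1 gene of each role was matched with the 7655 other tested genes of at least 5 FPKM in the mean by Pearson r over the 6 libraries, which share their 2 populations and differ in depth. ACVRL1 was most like SUSD6 (r = 0.9984), ICOSLG (0.9965) and RELB (0.9965). SMAD6 was most like NR5A2 (0.999), DBF4 (0.9989) and PALMD (0.9971), ID1 most like NSUN4 (0.9918), ILF2 (0.9903) and OAS1Y (0.9881), and BMP4 most like TNPO2 (0.9716), LOC107131564 (0.9683) and PTMS (0.9584). Among the 10 genes themselves, SMAD6 followed BMP6 (r = 0.981) and SMAD7 (0.943) most closely and ID3 (0.181) and BMP4 (−0.177) least. ACVRL1 (0.941), ENG (0.924) and BMPR2 (0.9) came close to SMAD7.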

How the data were processed

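Per the file headers, the authors deposited FPKM for each gene and library, with no scaling between libraries stated. The submitters' processing notes name cutadapt 2.5, HISAT2 2.1.0 and genome build ARS-UCD1.2. Not given in the sources used here are the tool behind FPKM, its annotation and whether counting used strand. Counts were not analysed here, and depth is known only relative to SP replicate 1. One row that names no single gene (0.18% to 1.91% of the summed FPKM) was left out. Locus starts in the files count from 0, since 5434 genes with the same end as in the RefSeq table (ARS-UCD2.0) start 1 base lower and 40 start equal, and are printed counted from 1.

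Genes with at least 1 FPKM in 3 or more libraries were fitted with limma 3.58.1 in R 4.3.3 (eBayes with trend, two-sided) on log2(FPKM + 1), with Benjamini-Hochberg adjustment at 0.05. The script was tested on simulated data. Levels relative to endothelial markers used the exact permutation test. Members, lists and tests were chosen with earlier results of these data known. Besides the 10 genes, the rule named up to 4 called genes a pathway list by smallest p, the most abundant cell markers and, for ACVRL1, BMP4, ID1 and SMAD6, the 3 genes of highest r; shares within families, BMPR1A, SMAD5, SMAD9, TCF12, ID4 and ATOH8 were added after values were seen. Alternatives were the pseudocount, filter, scaling, trend, replicate block and left-out libraries.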

Additional observations from a re-analysis of the deposited data

How the results depend on the processing

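The 6 calls among the 10 genes were kept in number or within 1.5 times of it under every change of pseudocount, filter, scaling and trend that was run, and none of the 10 was called lower under any alternative. Leaving out single libraries or a replicate number gave 0 to 8 genes called higher, with 3 without MP replicate 2 and 0 without replicate number 1 or 2, where 2 libraries a group remain; the second kind of fit was added after seeing the data. Over the same fits the other pathway genes gave 2 to 18 higher and 1 to 7 lower, and all genes 351 to 4455 calls. With a mean of at least 5 FPKM as the filter 4 pathway genes were lower instead of 7. BMP2, MSX2 and CHRD, with means of 4.39, 2.95 and 1.8 FPKM, were then not tested. Whether equal replicate numbers mark shared samples was not settled by the check used, since cell make-up can also enter the deviations compared. The deviations of same-numbered libraries correlated at 0.105, 0.533 and −0.085. Those of the other pairs of an SP with an MP library correlated at −0.42 to 0.279. With the replicate block, 6 of the 10 genes were called higher and 4793 genes were called in all; of the named genes one call changed, that of SMAD9 (adjusted p = 0.0277). Of the named genes that did not pass, BMP4, ID3 and TCF12 turned sign in single fits and BMPR2, ID1, BMPR1A, SMAD5, SMAD9 and ID4 did not: BMP4 over −1.05 to 0.10 (0.03 without MP replicate 1), ID3 over −0.34 to 0.57 (−0.34, −0.09 and −0.29 without SP replicate 1, MP replicate 2 and replicate number 1) and TCF12 over −0.53 to 0.22 when libraries were left out. Relative to the endothelial markers, SMAD7 turned from 0.22 to −0.06 against PECAM1, CDH5, TIE1 and ERG alone, where the groups of ACVRL1 (−1.12), BMPR2 (−1.80) and BMP6 (−0.49) stood apart. With libraries left out it ranged over −0.16 to 0.89, ENG over −0.52 to 0.47 and BMP6 over −0.42 to 0.08. The cause was not tested. Shallower SP libraries limit statements on genes near 0 in SP.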
